A study of Mus musculus with 6 samples.

Results

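The phagocyte NADPH oxidase is described here through 6 genes, Cybb, Cyba, Ncf1, Ncf4, Rac1 and Rac2, which were taken from the table by their symbols. They are 6 of the 54532 genes listed and do not cover every subunit of the complex. RNA was sequenced from mouse macrophages labelled as primary peritoneal cells, drawn by thioglycollate, harvested after 4 days, purified by 6 h of adherence, and then given interferon-γ at 2 ng/mL with lipopolysaccharide at 10 ng/mL for 8 h. The control group held 3 libraries, labelled shControl in the titles and WT as genotype. The SAHH-KO group held 3 libraries, labelled SAHH-KO in the titles and SAHH knockdown as genotype. S-adenosylhomocysteine hydrolase (SAHH), the product of Ahcy, removes S-adenosylhomocysteine, an inhibitor of methyltransferases. The labels used here name no strain, age or sex, no agent that lowered SAHH other than the word shControl, and no animal or culture for a replicate. The p-values therefore rest on the variation among these libraries alone, and that variation may be technical. Both groups were stimulated, and no unstimulated library is analysed here.

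The oxidase moves electrons from NADPH in the cytosol across a membrane to oxygen, which gives superoxide in the phagosome or outside the cell. Its electron-carrying core, flavocytochrome b558, is a pair of membrane proteins, gp91phox from Cybb and p22phox from Cyba. In a resting phagocyte the organising subunit p47phox (Ncf1) and the phosphoinositide-binding subunit p40phox (Ncf4) stay in the cytosol, and the complex assembles when they are moved to the membrane together with a Rac GTPase in its GTP-bound state. Loss of these subunits causes chronic granulomatous disease, in which phagocytes kill some bacteria and fungi poorly.

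Values are in FPKM, a fragment count divided by gene length and library depth, so that levels can be compared between genes. The libraries held 15540442 to 17748745 reads on genes, and the 6 genes drew 2889 reads (Rac1, SAHH-KO replicate 2) to 57331 reads (Cybb, SAHH-KO replicate 1) each. The targeted transcript Ahcy read 25.8, 22.6 and 24.4 FPKM in control replicates 1 to 3 and 5.51, 5.50 and 6.23 FPKM in the SAHH-KO ones, and 68.7% of its 50-base words also occur in other genes. Macrophage markers summed to 8344 to 8645 FPKM in control and 9320 to 10586 FPKM in SAHH-KO, with 8 of 8 detected and Mertk at 2 reads in all; Lyz2, at means of 5653 and 6616 FPKM, and Cd14 made up most of each sum. Of 7 macrophage markers tested, 4 were called higher and 0 lower in limma, against 26.4% higher and 26.8% lower over all genes tested. On values rescaled to TPM, where each library sums to the same total, 3 were higher and 1 lower. Fcgr1 rose 4.79-fold, Adgre1 2.09-fold and Itgam 1.43-fold, and Csf1r stood at 0.852 of its control mean (adjusted p = 0.0568). Of 10 neutrophil markers 7 had 0 reads, among them Ly6g and Mpo, and the list summed to 4.76 to 5.66 FPKM in control against 0.503 to 0.820 FPKM in SAHH-KO. S100a8 alone stood at 4.63 ± 0.486 and 0.189 ± 0.251 FPKM. B cell, T and NK cell, eosinophil and mast cell, mesothelial and fibroblast, and dendritic cell markers summed to at most 0.319 FPKM per list and library. The part of these marker differences in the results below was not tested, and in bulk RNA fewer cells of a type and less RNA per cell cannot be told apart.

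The sequence before the start site is shown for Cybb, Ncf1 and Cyba, the only 3 of 6 members with an entry in the RefSeq promoter table (GRCm38.p6). Cybb and Ncf1 showed the largest changes of the 6 genes and Cyba, the partner of Cybb, a smaller one. A link between motifs and these changes was not tested. Each run holds the 250 bases before the RefSeq start, 5′ to 3′ on the gene's own strand, which is the minus strand for all 3. They lie at chrX:9469325-9469574, chr5:134229626-134229875 and chr8:122432941-122433190. The Cybb window falls inside the gene span given in the table, which reaches to base 9487771. Capitals mark matches, on either strand, to the core of the interferon-stimulated response element (GAAA, 2 bases of any kind, GAAA), which IRF complexes bind, and to the gamma-activated site, an element of interferon-γ responses (TTC, 3 bases of any kind, GAA).
Cybb: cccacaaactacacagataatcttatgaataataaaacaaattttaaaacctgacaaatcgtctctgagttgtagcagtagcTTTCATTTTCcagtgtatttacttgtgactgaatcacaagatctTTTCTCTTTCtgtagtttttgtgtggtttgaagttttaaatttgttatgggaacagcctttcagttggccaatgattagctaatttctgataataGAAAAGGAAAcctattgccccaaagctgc
Ncf1: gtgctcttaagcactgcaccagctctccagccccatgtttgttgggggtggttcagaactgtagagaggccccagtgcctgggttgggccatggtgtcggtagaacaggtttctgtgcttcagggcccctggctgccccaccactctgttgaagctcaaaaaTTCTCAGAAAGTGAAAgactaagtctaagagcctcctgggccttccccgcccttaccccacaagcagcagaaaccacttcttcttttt
Cyba: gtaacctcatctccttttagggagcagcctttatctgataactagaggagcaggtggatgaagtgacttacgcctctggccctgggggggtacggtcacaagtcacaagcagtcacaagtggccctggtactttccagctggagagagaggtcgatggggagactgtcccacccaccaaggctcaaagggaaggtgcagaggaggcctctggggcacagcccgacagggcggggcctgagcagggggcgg

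The 5 motifs were searched on both strands from 250 bases before to 50 bases after the start. The interferon-stimulated core matched 3 times before the Cybb start, at bases -168 to -159 and -124 to -115 on the strand opposite to the gene and at -29 to -20 on the gene strand. It matched once before Ncf1, at -82 to -73, where it overlaps the only gamma-activated match, at -88 to -80. Of all 32851 promoters of this length, 3.44% hold the interferon-stimulated core and 8.3% hold the gamma-activated site. A composite site of the myeloid factor PU.1 with an IRF (GGAA, 2 bases of any kind, GAAA) matched at bases 4 to 13 after the Cybb start as GGAAATGAAA on the opposite strand (2.72% of all promoters), and overlaps the single match of the PU.1 core GAGGAA at bases 10 to 15 (28.3% of all). An NF-κB form (GGG, 2 bases of any kind, TTTCC) matched none of the 3 windows (1.63% of all), and none of the 5 motifs matched in the Cyba window. The G and C share was 34.0% before Cybb, 54.4% before Ncf1 and 60.0% before Cyba, against a median of 52.4% over all promoters. A match describes letters and not a bound site.

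**Figure D1:**
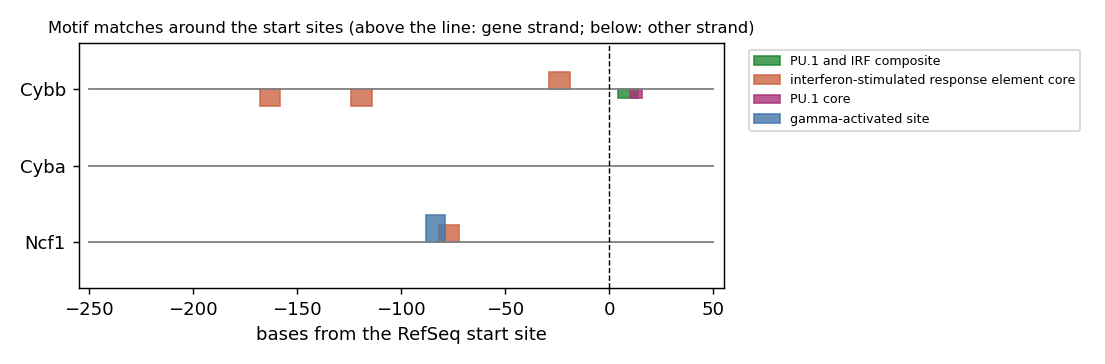
Positions of motif matches in bases from the RefSeq start site (dashed line) for the 3 members with a promoter entry; boxes above the line are on the gene strand and below it on the other strand, colours name the motif, and box height only separates overlapping matches. Cybb holds 3 matches of the interferon-stimulated response element core and Ncf1 holds 1, while Cyba holds no match of any motif searched.

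All 6 transcripts passed the test between the groups, 5 higher and 1 lower in SAHH-KO. The test was limma on log2(FPKM + 1) over the 10362 genes with at least 1 FPKM in at least 3 of the 6 libraries, with Benjamini-Hochberg adjusted p under 0.05, and every adjusted p-value for a gene below comes from it. Over all genes tested 26.4% were called higher and 26.8% lower, so a call as such is common in this comparison. Together 53.3% of all genes tested were called in one direction or the other. No control library reached into the range of the SAHH-KO libraries for any of the 6, which was so for 62.3% of all genes tested. The median log2 fold change was 0.31 over the 6 genes and -0.01 over all genes. Ncf1 and Cybb held their calls under all 14 alternatives tried, and the calls of the other 4 genes did not.

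**Figure D2:**
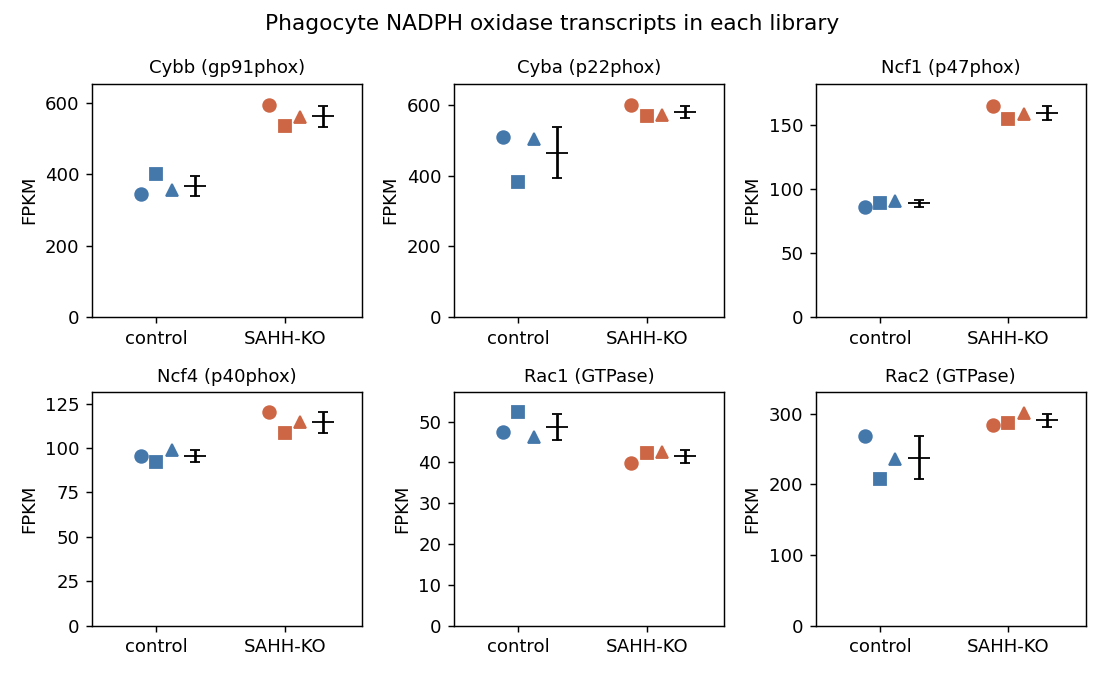
FPKM of each gene in each library, with replicates 1, 2 and 3 as circle, square and triangle and the group mean ± SD in black; all axes start at 0. Each SAHH-KO library lies above each control library for Cybb, Cyba, Ncf1, Ncf4 and Rac2 and below each for Rac1.

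Both genes of the membrane core were higher in SAHH-KO. Cybb (ENSMUSG00000015340, chromosome X of GRCm38, bases 9435252 to 9487771, minus strand, 13 exons in its longest annotated transcript) encodes gp91phox, which carries the haems, the flavin and the NADPH site. It read 345, 399.8 and 356 FPKM in control replicates 1, 2 and 3 and 593, 535 and 560.4 FPKM in the SAHH-KO ones. The lowest SAHH-KO library stood well above the highest control library, replicate 2. Cybb rose from 367 ± 28.9 to 563 ± 29.5 FPKM (SD, n = 3), or 1.53-fold (log2 fold change 0.62, SE 0.0836, limma adjusted p = 0.000427), and 13.4% of all genes tested had a higher log2 fold change.

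Cyba (ENSMUSG00000006519, chromosome 8, bases 122424776 to 122432930, minus strand, 6 exons) encodes p22phox, which stabilises gp91phox and docks p47phox. It read 510.5, 381 and 505 FPKM in control and 601, 569 and 572 FPKM in SAHH-KO. Control replicate 2 was low, and the other control libraries lay nearer to SAHH-KO than to it. The means were 466 ± 73.0 and 581 ± 17.5 FPKM, a 1.25-fold rise (log2 fold change 0.33, SE 0.116, limma adjusted p = 0.0407). Without control replicate 2 the log2 fold change was 0.19 (adjusted p = 0.0409). The call ended without any one of the 3 SAHH-KO libraries (adjusted p = 0.0772 to 0.108).

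The cytosolic subunits were both higher, by unequal amounts. Ncf1 (ENSMUSG00000015950, chromosome 5, bases 134220053 to 134229625, minus strand, 10 exons) encodes p47phox, which is phosphorylated on activation and carries the cytosolic subunits to p22phox. It read 85.8, 88.9 and 90.7 FPKM in control and 165, 154 and 158 FPKM in SAHH-KO. Each group was tight and the groups lay far apart. Ncf1 rose from 88.5 ± 2.46 to 159 ± 5.09 FPKM, 1.80-fold (log2 fold change 0.84, SE 0.0696, limma adjusted p = 2.95e-05), the largest rise of the 6 genes, and 8.91% of all genes tested had a higher log2 fold change. Of its exon bases 11.1% are shared with Gtf2ird2 on the opposite strand, and the sources used here do not say whether the counting used strand. Gtf2ird2 itself read 1.78 ± 0.0829 FPKM in the control group and 1.94 ± 0.113 FPKM in SAHH-KO.

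Ncf4 (ENSMUSG00000071715, chromosome 15, bases 78244801 to 78262580, plus strand, 10 exons) encodes p40phox, which binds phosphatidylinositol 3-phosphate on phagosomes. It read 95.3, 92.3 and 98.9 FPKM in control and 120.1, 109 and 115 FPKM in SAHH-KO. The groups were close, with control replicate 3 and SAHH-KO replicate 2 as neighbours. The means were 95.5 ± 3.27 and 114 ± 5.78 FPKM, 19.8% higher (log2 fold change 0.26, SE 0.0742, limma adjusted p = 0.0183). The call ended without SAHH-KO replicate 1 (adjusted p = 0.0690) or replicate 3 (adjusted p = 0.0794).

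The Rac GTPases moved in opposite directions. Rac2 (ENSMUSG00000033220, chromosome 15, bases 78559167 to 78572783, minus strand, 7 exons) is the form restricted largely to blood cells. It read 269, 208 and 237 FPKM in control and 284, 287 and 301 FPKM in SAHH-KO. The control libraries were spread widely, with replicate 2 lowest, and replicate 1 came near the SAHH-KO libraries. The means were 238 ± 30.5 and 291 ± 9.16 FPKM, 1.22-fold higher (log2 fold change 0.30, SE 0.0997, limma adjusted p = 0.0352). Leaving out control replicate 2 or 3 or any SAHH-KO library ended the call (adjusted p = 0.0678 to 0.119).

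Rac1 (ENSMUSG00000001847, chromosome 5, bases 143503634 to 143528036, minus strand, 6 exons) is the form found in most cell types, with roles in the actin cytoskeleton as well. It read 47.5, 52.3 and 46.1 FPKM in control and 39.7, 42.2 and 42.5 FPKM in SAHH-KO. The groups lay close together, with control replicate 3 nearest to SAHH-KO. Rac1 fell from 48.6 ± 3.24 to 41.5 ± 1.52 FPKM, to 0.853 of its control mean (log2 fold change -0.22, SE 0.0794, limma adjusted p = 0.0430). The call ended without control replicate 2 or 3 or without any SAHH-KO library (adjusted p = 0.0667 to 0.133). Of the Rac1 exon bases 51.4% are shared with Daglb on the opposite strand, which read 1.06 ± 0.164 and 1.15 ± 0.129 FPKM. How reads on shared bases were counted is not given, so the Rac1 level may be understated, whatever Daglb reads. At most 2.39% of the 50-base words of any of the 6 genes occur in transcripts of other genes, so near-identical copies touch few of their bases.

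The smaller rises rest on how the libraries are scaled. The deposited values use library sizes that were 1.05 to 1.07 times the assigned reads in control and 0.937 to 0.960 times in SAHH-KO. Rescaled to TPM, the median log2 fold change of all genes was -0.16, and 2006 genes were called higher and 3894 lower in place of 2736 and 2782. On that scale Ncf1 and Cybb still rose (log2 fold changes 0.68 and 0.46, adjusted p = 8.63e-05 and 0.00140). Cyba, Rac2 and Ncf4 stood at 0.17, 0.13 and 0.10 and missed the threshold (adjusted p = 0.255, 0.311 and 0.285). Rac1 fell by 0.39 on the log2 scale (adjusted p = 0.00475). Division by the assigned reads, an alternative added after seeing the data, gave calls for Ncf1, Cybb and Rac1 as well. Measured against the median of all genes, the 6 changes were alike under both scales, at 0.85 and 0.84 for Ncf1, 0.63 and 0.62 for Cybb, 0.34 and 0.33 for Cyba, 0.30 and 0.30 for Rac2, 0.27 and 0.26 for Ncf4 and -0.21 and -0.22 for Rac1.

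**Figure D3:**
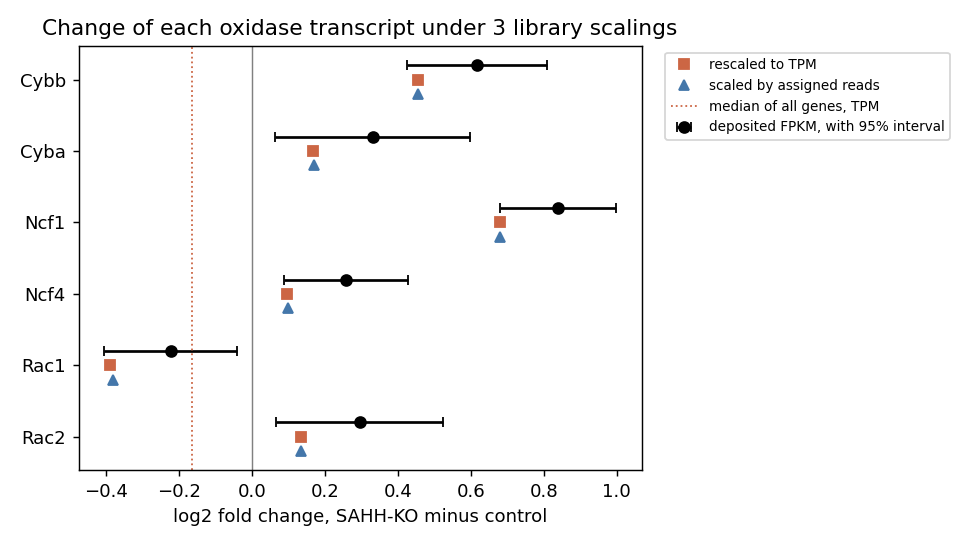
Log2 fold change of each gene, SAHH-KO minus control, on the deposited FPKM (black, with the 95% interval from limma), on TPM (squares) and scaled by assigned reads (triangles); the dotted line is the median of all genes on TPM. Both other scalings shift all 6 genes to the left, and Cyba, Ncf4 and Rac2 then lie between 0.10 and 0.17.

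Ratios within a library do not depend on its scaling, and 3 were set side by side. The ratio of Ncf1 to Ncf4 was 0.901, 0.963 and 0.918 in control and 1.37, 1.42 and 1.38 in SAHH-KO, so the order of these subunits by FPKM was turned in every library. The ratio of Rac2 to Rac1 was 5.67, 3.98 and 5.13 in control and 7.15, 6.79 and 7.08 in SAHH-KO. Rac2 was the more abundant Rac transcript in all 6 libraries, and the groups did not overlap for either ratio. The exact permutation test, two-sided, gave p = 0.1 for both (0.15 adjusted over the 3 ratios), the smallest value that 3 against 3 allows. The ratio of Cyba to Cybb was 1.48, 0.954 and 1.42 in control and 1.01, 1.06 and 1.02 in SAHH-KO. Its groups overlapped through control replicate 2 (exact permutation p = 0.4, adjusted 0.4). The log2 difference of this ratio was -0.29, and its SD was 0.35 in control.

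**Figure D4:**
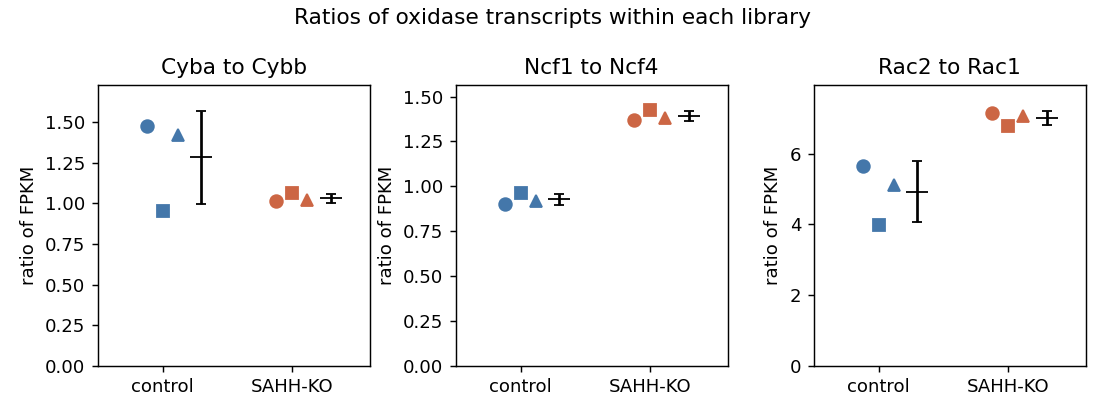
Ratio of FPKM within each library for 3 pairs of oxidase genes, with replicates 1, 2 and 3 as circle, square and triangle and the group mean ± SD in black. The Ncf1 to Ncf4 ratio lies at 0.901 to 0.963 in control and at 1.37 to 1.42 in SAHH-KO.

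By level the transcripts of the membrane core stood highest. In control the order by mean was Cyba, Cybb, Rac2, Ncf4, Ncf1 and Rac1, and in SAHH-KO it was the same except that Ncf1 stood above Ncf4. Cyba and Cybb overlapped in range in both groups, so the ranges leave their order unresolved. Within libraries Cyba stood above Cybb in 2 of the control libraries and in all 3 SAHH-KO libraries. All other neighbours were separate in range. The place of Rac1 in these orders and ranks, and the size of the Rac2 to Rac1 ratio, depend on how reads on its shared exon bases were counted. Among all 10362 genes tested Cyba ranked 81 by control mean and 73 by SAHH-KO mean, Cybb 109 and 78, and Rac1 1016 and 1298.

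The transcripts with the most alike profile were sought among tested protein-coding genes with a mean of at least 10 FPKM, by the root mean square difference of centred log2(FPKM + 1) over the 6 libraries. Closest to Cybb were Dock10 and Eprs, with differences of 0.0280 and 0.0362. Closest to Ncf1 were Bcl2a1d, which has near-identical copies, and Vcpip1 (0.0275 and 0.0341). Closest to Cyba were Znrf1 and Josd2 (0.0217 and 0.0349), to Ncf4 Akr1a1 (0.0266), to Rac2 Yipf3 and Aen (0.0269 and 0.0308), and to Rac1 Celf1 and Zfp207 (0.0223 and 0.0279). With 6 libraries in 2 groups such a list describes these libraries.

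Transcription factors known to act on oxidase genes were mostly higher in SAHH-KO. The list does not separate factors that activate these genes from those that repress them. Of 17 listed, 13 were tested, 11 were higher and 1, Runx1, named after its values were seen, was lower. Over all genes tested 26.4% were higher and 26.8% lower. Runx1 was not called without control replicate 1 or without SAHH-KO replicate 2 or 3. The median log2 fold change was 0.63 (0.47 on TPM, with 9 higher and 1 lower). Irf1, an activator induced by interferon-γ, read 1.80, 1.53 and 1.69 FPKM in control and 30.5, 17.3 and 18.3 FPKM in SAHH-KO (log2 fold change 3.06, limma adjusted p = 6.43e-06). The SAHH-KO libraries were far above control, and replicate 1 was highest. Irf2 and Nfkb1 rose 2.63-fold and 1.88-fold (adjusted p = 3.45e-05 and 8.98e-05). Spi1, which encodes PU.1, and Irf8, its partner in myeloid cells, were looked at after their values were seen, because the composite motif is theirs. Spi1 rose from 166 ± 22.2 to 256 ± 9.69 FPKM (adjusted p = 0.00130) and Irf8 from 18.0 ± 0.993 to 25.8 ± 0.564 FPKM (adjusted p = 0.000884).

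Genes that assemble or serve the oxidase outside the 6 did not pass the test. Of 7 listed partners 4 were tested, with 0 called in limma, where 53.3% of all genes tested were called. None passed at an unadjusted p under 0.05 either. On TPM, and likewise on division by the assigned reads, 2 were called lower. With a term for the replicate number, and likewise without control replicate 1, 1 was called lower. With no filter on low values 6 partners were tested and 1 was called lower. Cybc1, which encodes the chaperone of gp91phox, read 9.22 ± 0.479 and 8.98 ± 0.574 FPKM (adjusted p = 0.750). Nrros, whose product limits gp91phox, read 36.2 ± 2.35 and 35.4 ± 0.438 FPKM (adjusted p = 0.777). Cybc1 and Nrros were named after their values were seen. The proton channel gene Hvcn1 was below the filter at 0.559 ± 0.0704 and 0.0821 ± 0.0414 FPKM, with 116 reads over all libraries. None of the 7 listed genes of other NADPH oxidases and their maturation factors reached the filter, and Nox4, Duoxa1 and Duoxa2 had 0 reads.

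Regulators of the Rac switch went both ways, with 5 of 17 tested higher and 5 lower (median log2 fold change -0.11), or 4 higher and 9 lower on TPM. The limma counts lie near the shares over all genes tested, 26.4% higher and 26.8% lower. The exchange factor genes Prex1 and Tiam1 rose 2.37-fold and 2.22-fold, the GTPase-activating genes Srgap2 and Abr 2.69-fold and by 50.4%, and the GTPase gene Rhog 1.33-fold. Racgap1, a GTPase-activating gene of cytokinesis, fell from 12.1 ± 0.449 to 3.88 ± 0.447 FPKM (limma adjusted p = 7.83e-06). The exchange factor genes Arhgef7, Vav1 and Arhgef6 and the inhibitor gene Arhgdia were also lower, at 0.615, 0.788, 0.788 and 0.817 of their control means. Without SAHH-KO replicate 2, and likewise without replicate 3, 2 regulators were called lower and 5 higher. Tiam1, Rhog, Arhgef7, Vav1, Arhgef6 and Arhgdia were named after their values were seen.

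Of 15 tested kinases and lipid enzymes upstream of the cytosolic subunits 8 were lower and 2 higher (median -0.26, or -0.43 on TPM with 9 lower and 2 higher). All genes tested gave 26.8% lower and 26.4% higher. The higher ones were Prkcd, which encodes a protein kinase C that phosphorylates p47phox, and Mapk3, the gene of ERK1. Prkcd rose from 37.8 ± 4.85 to 64.1 ± 2.06 FPKM (limma adjusted p = 0.000355) and Mapk3 from 54.9 ± 2.20 to 97.0 ± 6.94 FPKM (adjusted p = 8.14e-05). Akt1 fell to 0.622 and Syk, a kinase downstream of Fc receptors and lectins, to 0.658 of its control mean (adjusted p = 0.000803 and 0.00187). Without SAHH-KO replicate 2, and likewise without replicate 3, 5 genes of this list were called lower and 2 higher.

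Of 12 tested enzymes that supply NADPH, the substrate of the oxidase, 7 were lower and 1 higher (median -0.27, or -0.43 on TPM with 8 lower and 0 higher). The shares over all genes tested were 26.8% lower and 26.4% higher. G6pdx, the entry enzyme of the pentose phosphate pathway, fell from 122.6 ± 1.86 to 93.9 ± 2.09 FPKM and Pgd, the next NADPH-making step, from 88.4 ± 7.90 to 49.9 ± 5.27 FPKM (limma adjusted p = 0.00174 and 0.000300). Of the G6pdx exon bases 13.6% are shared with Ikbkg on the opposite strand, and 6.46% of its 50-base words also occur in other genes. Taldo1 and Mthfd1 fell to 0.635 and 0.587 of their control means. The higher one, Pgls, was named after its values were seen (1.28-fold, adjusted p = 0.0121), and it was not called on TPM. Without control replicate 2, 2 enzymes were called higher.

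Of 15 tested genes that handle superoxide and peroxide, 10 were lower and 3 higher (median -0.32, or -0.48 on TPM with 12 lower and 2 higher). Beside this, 26.8% of all genes tested were lower and 26.4% higher. Cat, the catalase gene, fell from 49.3 ± 1.75 to 28.1 ± 2.995 FPKM (limma adjusted p = 0.000188), and the thioredoxin genes Txn1 and Txnrd1 to 0.660 and 0.653 of their control means. Prdx5, a peroxiredoxin gene, rose from 107 ± 14.6 to 249.5 ± 7.67 FPKM (adjusted p = 3.59e-05), and 19.1% of its exon bases are shared with Trmt112. Sod2, the mitochondrial dismutase gene, and Prdx2, named after their values were seen, rose 1.41-fold and 1.19-fold. Of all 76 tested genes in these lists, 22 were higher and 31 lower, against 26.4% and 26.8% of all genes tested. Each of the 76 had values of at least 1 FPKM in all 6 libraries.

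**Figure D5:**
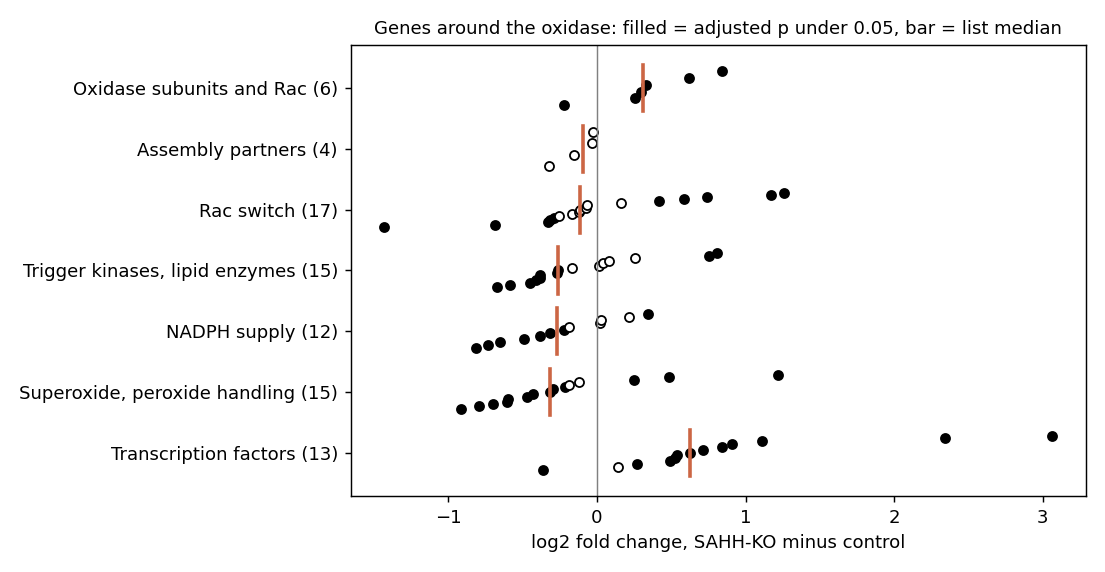
Log2 fold change of the tested genes of the oxidase and of 6 surrounding lists, with the number tested in brackets; filled points passed the limma test and bars are list medians. The transcription factors have a median of 0.63, and the NADPH supply and superoxide or peroxide handling lists have medians of -0.27 and -0.32.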

How the data were processed

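The authors deposited 1 table of FPKM values for 54532 genes, with 1 column per library and each gene's length. Per the submitters' processing notes, FastQC, Trim Galore, STAR and featureCounts were used with the builds GRCm38 and mm10; versions, settings, strand and the step from counts to FPKM are not given in the sources used here. FPKM times gene length fell on whole multiples of 1 step in each library, 100% within 0.01 of a read, which gave the reads and library sizes. The groups were compared with limma (3.58.1, R 4.3.3) by lmFit and eBayes with trend, two-sided, with no term but the group, as tested on simulated data. The model was fitted over all 10362 genes that passed the filter. Log2 fold changes are on the log2(FPKM + 1) scale; folds are ratios of mean FPKM. Intervals are 95% confidence intervals of the log2 fold change from limma, and they rest on the variation between libraries alone.

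The genes, the 7 surrounding lists and the tests were chosen with earlier results of these data known. Named are the 6 genes, Ahcy, up to 4 called genes per list with the smallest p, and 2 genes per member with the most alike profile; others are said to be named after their values were seen, and some genes the rule gave are not reported here. Exons and 50-base words come from GENCODE M21. No libraries held identical values, and within groups their reads differed beyond counting error. Alternatives were other pseudocounts, filters, scalings and variance models, a replicate block and leaving out each library.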

Additional observations from a re-analysis of the deposited data

How the results depend on the processing

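Across the 14 alternatives no log2 fold change of the 6 genes, Ahcy or the list genes named by smallest p changed direction. This does not cover the list genes named after their values were seen. Cybb, Ncf1 and Ahcy kept their calls (limma adjusted p at most 0.00539 for Cybb and 0.000354 for Ncf1). With no filter on low values 3 oxidase genes were called higher and 0 lower (1 at an unadjusted p under 0.05). Cyba (0.33), Rac2 (0.30) and Rac1 (-0.22) missed the threshold at equal log2 fold changes. That fit holds more genes in both the adjustment and the variance model, and the part of each was not tested. On TPM and on assigned-read scaling 2 were called higher, and Cyba stood at 0.17 and 0.17, Ncf4 at 0.10 and 0.10 and Rac2 at 0.13 and 0.14. With eBayes without trend Cyba (0.33, adjusted p = 0.0505) and Rac1 (-0.22, adjusted p = 0.0563) missed it, with 0 called lower (1 at an unadjusted p under 0.05). Equal replicate numbers did not pair the libraries, with correlations of their deviations of 0.10, 0.10 and -0.01, and not every library correlated best with its own number. With a replicate block Rac1 stood at -0.22 (adjusted p = 0.0556), which left 0 called lower (1 at an unadjusted p under 0.05), 2729 of all genes were called higher and 2761 lower, and no other call among the 6 changed. Leaving out 1 library left 2 to 5 oxidase genes higher and 0 to 1 lower in limma (0 to 1 lower at an unadjusted p under 0.05), with log2 fold changes of 0.19 to 0.40 for Cyba, 0.22 to 0.30 for Ncf4, 0.20 to 0.39 for Rac2 and -0.26 to -0.17 for Rac1. Cd68, a macrophage marker that was not called, stood at -0.12 on TPM and -0.11 on assigned-read scaling, and at -0.00800 to 0.11 with 1 library left out, against 0.05. Leaving out 1 library left 20 to 30 list genes lower, with 20 without SAHH-KO replicate 3. The causes of these changes were not tested. Each of the 6 genes drew at least 2889 reads per library, and the number of libraries limits the precision.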
